A study of Homo sapiens with 8 samples.

Results

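Homologous recombination (HR) and Fanconi anemia (FA) genes were followed at the RNA level in human multiple myeloma (MM) cell lines given the CDK7 inhibitor THZ1. The 37 genes were taken from a list of symbols grouped by role in these pathways, out of 63677 genes in the count table, and the rule for the list used no measured value. The list was chosen with earlier results of these data known, however, so it is not independent of them. All 37 were matched, had counts in all 8 libraries and passed the filter on low counts in every comparison. RNA-seq was available for JJN3 and H929, both MM lines, after 24 h in DMSO (the solvent control) or 50 nM THZ1, with 2 libraries in each of the 4 groups. The labels did not say whether the 2 libraries of a group came from separate cultures, so the p-values measure the spread between these libraries, which may be technical. The comparison asks how this repair pathway responds at the RNA level to a block of transcriptional kinases.

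HR repairs broken DNA by copying an intact sister duplex. The broken end is first trimmed to a single strand, and BRCA1, PALB2 and BRCA2 then help to prepare it for pairing with the intact duplex. The FA pathway unhooks DNA strands that have been linked covalently to each other, as by platinum drugs or melphalan, an alkylating drug used in MM. A core complex of FANC proteins attaches ubiquitin to FANCD2 and FANCI, and downstream steps pass through HR. Many of these genes are expressed with DNA replication in S phase. THZ1 binds CDK7 covalently and can also reach CDK12 and CDK13, and CDK12 with cyclin K is known for supporting the transcription of several genes of this pathway.

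The libraries labelled H929 did not behave as a single line. Among counts of light chain V genes, the lambda share was 100% and 98% in the 2 DMSO libraries but 0.212% and 0.211% in the 2 THZ1 libraries, whereas it lay between 0.257% and 0.391% in all 4 JJN3 libraries. Pearson correlations of log2 CPM (counts scaled to the size of the library) between H929-labelled DMSO and THZ1 libraries were 0.834 to 0.852, within the range of 0.831 to 0.861 seen between libraries of the 2 lines, while in JJN3 they were 0.972 to 0.978. The plasma cell marker SDC1 read 243.9 and 279.5 CPM in the H929-labelled DMSO libraries and 1655 and 1554 CPM in those labelled THZ1. The 8 plasma cell markers did not all go that way, with 6 called higher and 2 lower under the THZ1 label. The lower ones were MZB1, from 353.0 and 381.6 CPM to 179.7 and 169.7 CPM, and CD38, from 97.4 and 91.6 CPM to 63.7 and 61.8 CPM. All 8 plasma cell markers had a count in every library. SLAMF7 at 0.108 CPM in H929 DMSO replicate 1 was under the floor of 3 counts, but it read 9.63 CPM in replicate 2. It read 469.9 and 484.0 CPM under the H929 THZ1 label. Counts of kappa V genes, the other light chain class, were 3 and 597 in these DMSO libraries and 31511 and 29325 under the THZ1 label. The cause of the difference between the 2 DMSO libraries was not tested. The summed level of the 8 markers was 1449 to 2076 CPM in JJN3. It was 1778 and 1918 CPM under the H929 DMSO label and 6931 and 6824 CPM under the H929 THZ1 label. The summed levels of the B cell, T cell, myeloid, erythroid and stromal markers were at or under 5.11 CPM, except for 33.9 and 34.6 CPM of T cell markers, nearly all CD3E, under the H929 THZ1 label. Total counts ranged from 17476443 to 19194371 per library. For the H929 labels, treatment and the source of the cells cannot be told apart, so the JJN3 libraries are described first and on their own.

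In JJN3, 17 of the 37 genes fell with THZ1 (45.9%) and 0 rose, at an adjusted p under 0.05 (edgeR quasi-likelihood test) and a log2 fold change beyond 0.5. Across the 13984 genes tested, 21.3% were called lower and 20.6% higher. The median log2 fold change of the 37 genes was -0.45, against 0.00 for all genes tested, and 28 of the 37 values were negative. The TMM scaling of library sizes itself places the bulk of genes near 0. Every fall, rise or flat value here is therefore relative to the other RNA, and a change in the total amount of RNA per cell would not be seen. Of the genes with a positive value, 4 had an unadjusted p under 0.05 in edgeR (BRCA2, FANCA, FANCL and ATM). Each of these also had an edgeR adjusted p under 0.05, and only the limit of 0.5 kept it from being called. DESeq2 also called 17 lower and 0 higher. Summed over the 37 genes, the level was 2914 and 2884 CPM in the DMSO libraries and 2236 and 2218 CPM in the THZ1 libraries, a difference of -23.2% in the mean (no test was made on the sum). In bulk RNA, fewer cells in S phase and less RNA of these genes per cell cannot be told apart. The plot of levels by library shows that the fall was spread over genes of very different abundance.

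**Figure D1:**
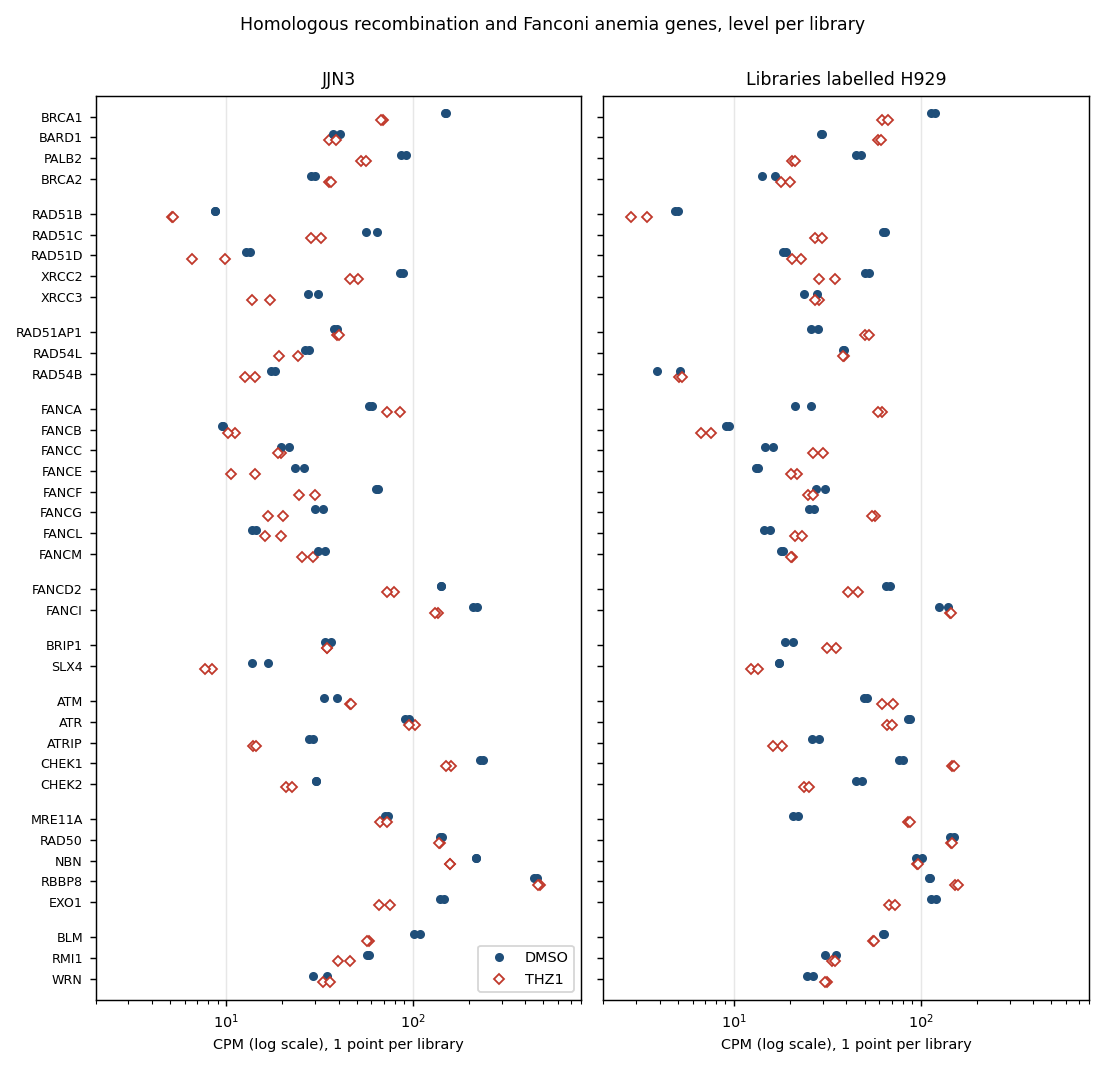
Level of each of the 37 genes in every library, in CPM on a log axis, grouped by role from top to bottom, with filled circles for DMSO and open diamonds for THZ1 (2 libraries each). In the left panel the THZ1 points of RAD51B, RAD51C, RAD51D, XRCC2 and XRCC3 lie to the left of the DMSO points, while in the right panel, for the libraries labelled H929, MRE11A, FANCA and FANCG lie to the right.

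BRCA1, BRCA2 and their direct partners did not move together. BRCA1, the scaffold and ubiquitin ligase that directs breaks into HR, read 150.8 and 148.2 CPM in the DMSO libraries and 69.2 and 67.9 CPM in the THZ1 libraries of JJN3. Its log2 fold change was -1.11 ± 0.077 (SE), with an edgeR adjusted p of 1.33e-06. BARD1, the obligate partner of BRCA1 in that ligase, read 40.7 and 37.3 CPM in DMSO and 35.7 and 38.7 CPM in THZ1. Its groups overlapped, and its log2 fold change was -0.05 ± 0.095 (edgeR adjusted p = 0.672). PALB2, which bridges BRCA1 to BRCA2, fell from 92.1 and 86.9 CPM to 52.5 and 56.1 CPM, a log2 fold change of -0.71 ± 0.083 (edgeR adjusted p = 3.43e-05). BRCA2, a mediator of strand exchange that binds single-stranded DNA, read 30 and 28.5 CPM in DMSO and 35.7 and 36.6 CPM in THZ1. Its groups did not overlap, but the log2 fold change of 0.32 ± 0.094 was smaller than the limit of 0.5 (edgeR adjusted p = 0.0126). In this group 2 of 4 genes fell, the ligase partner BARD1 and BRCA2 not among them.

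RAD51B, RAD51C, RAD51D, XRCC2 and XRCC3, which form related complexes that assist HR, all fell (5 of 5). RAD51C, which takes part in more than a single complex of this kind, read 56.2 and 64.3 CPM in DMSO and 28.6 and 32.4 CPM in THZ1, the largest log2 fold change of the 5 at -0.96 ± 0.10 (edgeR adjusted p = 1.86e-05). XRCC2 went from 88.7 and 85.7 CPM to 50.8 and 46.3 CPM, a log2 fold change of -0.83 ± 0.084 (edgeR adjusted p = 1.28e-05). XRCC3, the partner of RAD51C, went from 27.3 and 30.9 CPM to 17.1 and 13.7 CPM, a log2 fold change of -0.91 ± 0.13 (edgeR adjusted p = 0.000146). RAD51B and RAD51D were the scarcest of the group. RAD51B read 8.69 and 8.70 CPM in DMSO and 5.13 and 5.22 CPM in THZ1, a log2 fold change of -0.73 ± 0.17 (edgeR adjusted p = 0.00302). RAD51D read 13.4 and 12.8 CPM in DMSO and 6.60 and 9.89 CPM in THZ1, a log2 fold change of -0.65 ± 0.18 (edgeR adjusted p = 0.01). The RAD51D call rests on a single library, since without THZ1 replicate 1 its log2 fold change was -0.39 and no longer passed. The canonical XRCC3 transcript shares 34.2% of its bases with KLC1 on the opposite strand, and the strand setting of the counting was not given in the sources used here, so its counts are uncertain to that extent. RAD54L, RAD54B and RAD51AP1, which assist strand exchange, were not called. RAD54L, a motor protein that moves along DNA, had a log2 fold change of -0.31 ± 0.13, its relative RAD54B had -0.40 ± 0.12, and RAD51AP1, which stimulates strand pairing, had 0.06 ± 0.089. RAD54L shares 26.2% of its canonical transcript with LRRC41 on the opposite strand, so its counts are uncertain too.

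In the FA core complex 3 of 8 genes fell, and the rest were split in sign. FANCF, an adaptor of the complex and a gene of 1 exon at chr11:22644079-22647369 (GRCh37, minus strand), read 65.3 and 63.5 CPM in DMSO and 29.8 and 24.7 CPM in THZ1. Its log2 fold change of -1.23 ± 0.10 was the largest fall among the 37 genes (edgeR adjusted p = 3.59e-06). FANCE, which links the core to FANCD2, went from 23.5 and 26.0 CPM to 10.6 and 14.3 CPM, a log2 fold change of -0.97 ± 0.15 (edgeR adjusted p = 0.000203). FANCG, another scaffold of the core, went from 30.1 and 33.0 CPM to 16.7 and 20.2 CPM, a log2 fold change of -0.76 ± 0.12 (edgeR adjusted p = 0.000285). The catalytic ubiquitin ligase FANCL and the large subunit FANCA were not called. FANCL read 13.8 and 14.5 CPM in DMSO and 16.2 and 19.8 CPM in THZ1, a log2 fold change of 0.37 ± 0.13. FANCA read 58.4 and 60.8 CPM in DMSO and 85.3 and 73.1 CPM in THZ1, a log2 fold change of 0.42 ± 0.093 (edgeR adjusted p = 0.00231), the highest value among the 37 genes. Leaving out 1 library took each of these past the limit, FANCL at 0.50 without THZ1 replicate 1 and FANCA at 0.53 without THZ1 replicate 2. FANCA shares 27.4% of its canonical transcript with ZNF276 and FANCL 27.3% with VRK2, on opposite strands. The log2 fold changes of FANCB, FANCC and the DNA translocase FANCM were 0.18, -0.08 and -0.24.

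The substrates of the core complex fell as a pair. FANCD2 read 27.9 and 27.7 CPM per kb of canonical transcript in DMSO and 15.6 and 14.2 CPM per kb in THZ1, a log2 fold change of -0.88 ± 0.081 (edgeR adjusted p = 6.58e-06). FANCI, its partner in the clamp, read 211.1 and 220.9 CPM in DMSO and 136.5 and 130.8 CPM in THZ1, a log2 fold change of -0.68 ± 0.080 (edgeR adjusted p = 3.37e-05). Downstream, SLX4, the scaffold for nucleases that cut around a crosslink, went from 16.7 and 13.8 CPM to 8.37 and 7.67 CPM, a log2 fold change of -0.91 ± 0.15 (edgeR adjusted p = 0.000348). The helicase BRIP1, which binds BRCA1, stayed between 33.9 and 36.3 CPM in all 4 JJN3 libraries, with a log2 fold change of 0.00 ± 0.093.

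Of the 5 checkpoint genes, ATRIP and CHEK1 fell and ATM, ATR and CHEK2 were not called. ATR, the kinase that senses single-stranded DNA, read 91.2 and 95.9 CPM in DMSO and 102.3 and 95.7 CPM in THZ1, a log2 fold change of 0.10 ± 0.080 (edgeR adjusted p = 0.325). ATRIP, the subunit that brings ATR to that DNA, went from 27.8 and 29.3 CPM to 13.9 and 14.4 CPM, a log2 fold change of -0.996 ± 0.11 (edgeR adjusted p = 2.33e-05). The exon overlap of ATRIP with TREX1, 31.6% of its canonical transcript on the same strand, makes this count uncertain. CHEK1, the kinase downstream of ATR, read 229.1 and 236.3 CPM in DMSO and 159.6 and 150.8 CPM in THZ1. With a log2 fold change of -0.57 ± 0.080 (edgeR adjusted p = 0.000115) it was the called gene nearest to the limit. The nearest that did not reach it were CHEK2, the kinase downstream of ATM, at -0.47 ± 0.10, and the ATM recruiter NBN at -0.45 ± 0.077, each with an adjusted p under 0.05. CHEK2 has 7 named pseudogenes, and BRCA1, RAD51AP1, FANCD2, MRE11A and RBBP8 have 1 each. The authors kept only uniquely aligned reads, so reads that match a pseudogene equally well would have been dropped. How far the sequences are shared was not checked, which leaves these counts uncertain. ATM itself, which responds to broken ends, read 39.1 and 33.4 CPM in DMSO and 46.2 and 46.7 CPM in THZ1, a log2 fold change of 0.37 ± 0.098.

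Of the 5 genes of end resection, 1 fell. EXO1, the exonuclease of long-range resection, read 147.2 and 139.6 CPM in DMSO and 66.3 and 75.3 CPM in THZ1, a log2 fold change of -1.001 ± 0.087 (edgeR adjusted p = 4.92e-06). MRE11A and RAD50, the nuclease and the coiled-coil subunit of the complex that starts resection, had log2 fold changes of -0.04 ± 0.083 and -0.01 ± 0.076. RBBP8, the cofactor of that nuclease, had the highest level per length of the 37 genes, at 141 and 136 CPM per kb of canonical transcript in DMSO and 146 and 143 CPM per kb in THZ1. Its log2 fold change was 0.08 ± 0.085 (edgeR adjusted p = 0.431). BLM, the RecQ helicase that dissolves joined duplexes, read 109.7 and 101.9 CPM in DMSO and 58.4 and 56.9 CPM in THZ1, a log2 fold change of -0.86 ± 0.081 (edgeR adjusted p = 7.78e-06). RMI1, a subunit of the same dissolving complex, had -0.41 ± 0.095, and the related helicase WRN had 0.13 ± 0.11, neither called.

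**Figure D2:**
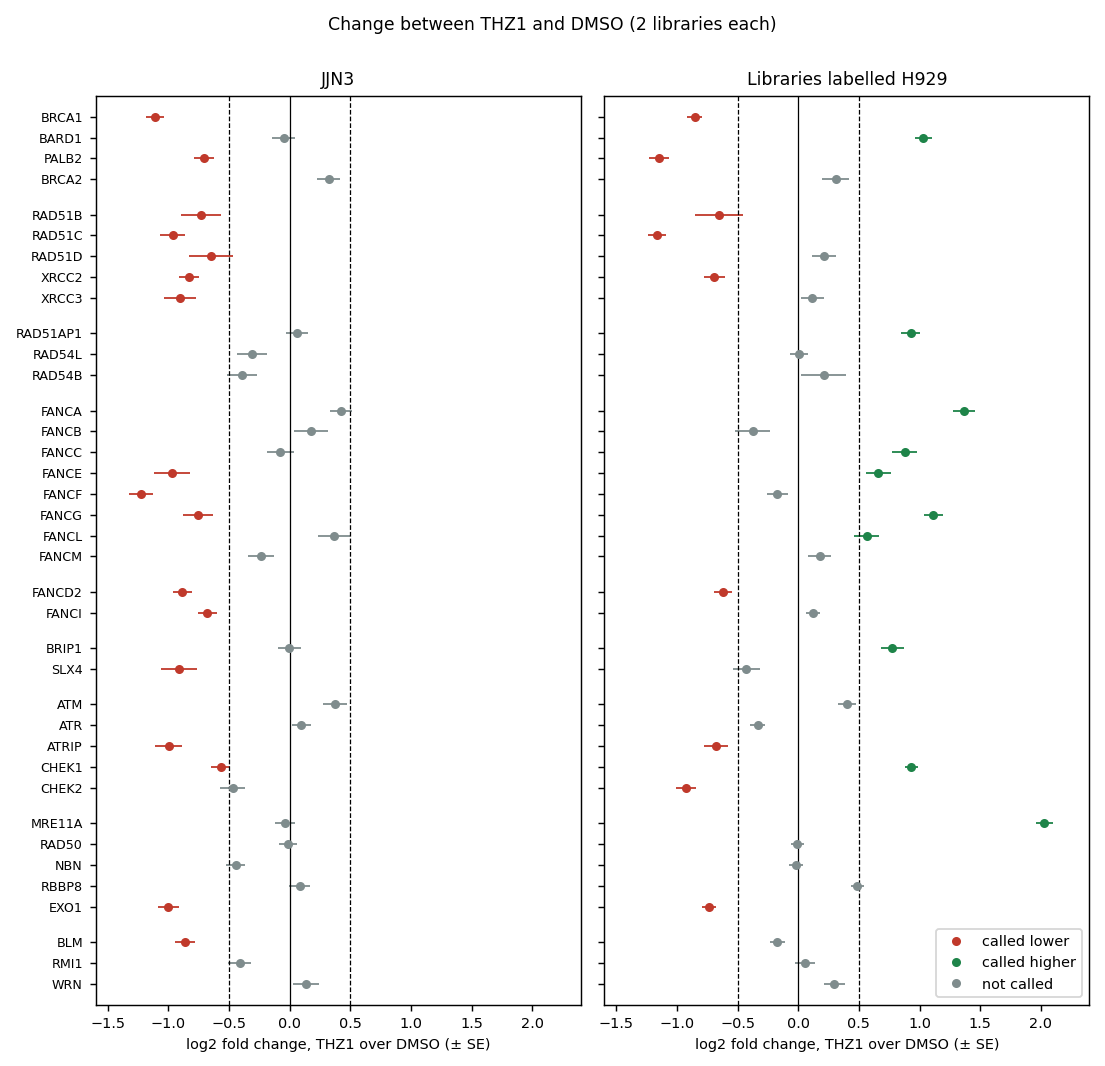
Log2 fold change of THZ1 over DMSO for the 37 genes (point) with its SE (bar), in JJN3 on the left and between the libraries labelled H929 on the right, with dashed lines at the limit of 0.5 in either direction. Red points were called lower, green higher and grey neither: 17 and 0 in JJN3, 9 and 10 between the H929 labels.

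The genes that fell in JJN3 had shorter spans at the median than those that were not called. The distance from first to last base of the gene (its span, from GENCODE models on GRCh37) had a median of 38.2 kb in the 17 genes that fell and 87.8 kb in the 20 that were not called. The 13548 genes tested in JJN3 that have a gene model were put into 5 classes of nearly equal size by span. From the shortest to the longest class, the members that fell numbered 2 of 2, 2 of 2, 5 of 8, 5 of 14 and 3 of 11. In the same classes, 23.2%, 31.0%, 24.8%, 16.6% and 11.3% of these genes fell, and their median log2 fold changes were 0.03, -0.23, -0.13, 0.06 and 0.21. The longest gene of the list, RAD51B at 910.4 kb, fell, while the next longest, FANCC at 327.7 kb and RBBP8 at 228.2 kb, did not. Spearman's rho between span and log2 fold change was 0.566 across the 37 genes and 0.111 across 13548 genes in JJN3, and 0.108 and 0.065 between the H929 labels. These are descriptions across genes of the same 4 libraries, without a test.

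**Figure D3:**
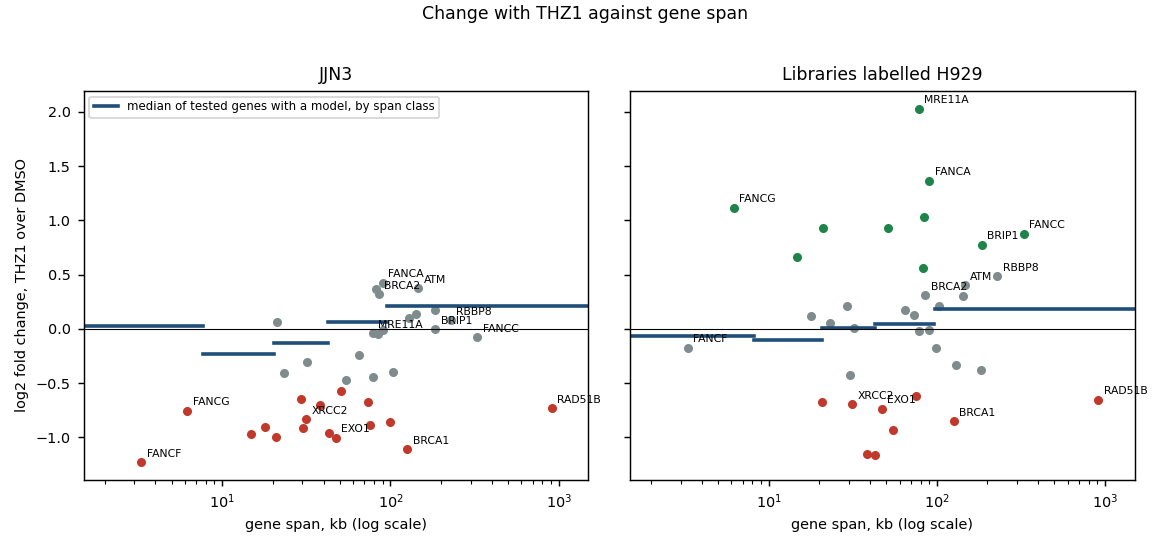
Log2 fold change of THZ1 over DMSO against gene span in kb on a log axis, for the 37 genes (points, red called lower, green called higher, grey neither), in JJN3 and between the libraries labelled H929. Blue lines give the median of the tested genes with a gene model (13548 in JJN3 and 14409 between the H929 labels) in each of the 5 span classes. In JJN3 all members under 20.4 kb were red, and of the 11 members in the class of longest span BLM, BRCA1 and RAD51B were red.

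Other DNA repair genes also fell more often than they rose in JJN3. Of 49 other HR and FA genes tested, 22 fell and 3 rose, with a median log2 fold change of -0.37. SFR1 and SWI5, subunits of a complex that assists HR, fell by 1.74 and by 1.29 on the log2 scale, and UBE2T, the ubiquitin-conjugating enzyme of the FA core, fell by 1.27. REV3L, the catalytic subunit of a translesion polymerase, rose by 1.11 ± 0.10, from 40.4 and 33.6 CPM to 81.7 and 76.2 CPM. Of 15 end-joining genes, 7 fell and 0 rose. The largest falls among those with a mean log2 CPM of at least 3 were in XRCC4, LIG3 and TDP1 (-1.35, -1.08 and -0.97). In mismatch and excision repair 14 of 32 fell and 0 rose, and at that abundance the base excision genes MUTYH, APEX1 and OGG1 had the largest falls (-1.34, -1.27 and -1.14). Of the S phase and proliferation list 15 of 23 were lower and 0 higher, with a median log2 fold change of -0.78. At an unadjusted p under 0.05 in edgeR, the genes with a positive change numbered 0 in end joining, 4 in mismatch and excision repair and 1 in the S phase list. Its summed level was 7049 and 7288 CPM in the DMSO libraries of JJN3 and 4841 and 4862 CPM in the THZ1 libraries, all 23 genes being detected in each, and its part in the fall of the HR and FA genes was not tested. E2F1, a transcription factor of S phase genes, CDC6 and GINS1, which act at replication origins, fell by 1.25, 1.13 and 1.11 on the log2 scale. The share of the HR and FA genes that fell, 45.9%, was thus close to the 44.9%, 46.7% and 43.8% of the other repair lists, and all 4 shares were above the background of all genes. At the inhibitor's targets, CDK7 (-0.38 ± 0.11), CDK12 (0.30 ± 0.079) and CDK13 (0.41 ± 0.076) were not called, while CCNK, which encodes cyclin K, rose by 0.53 ± 0.088.

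**Figure D4:**
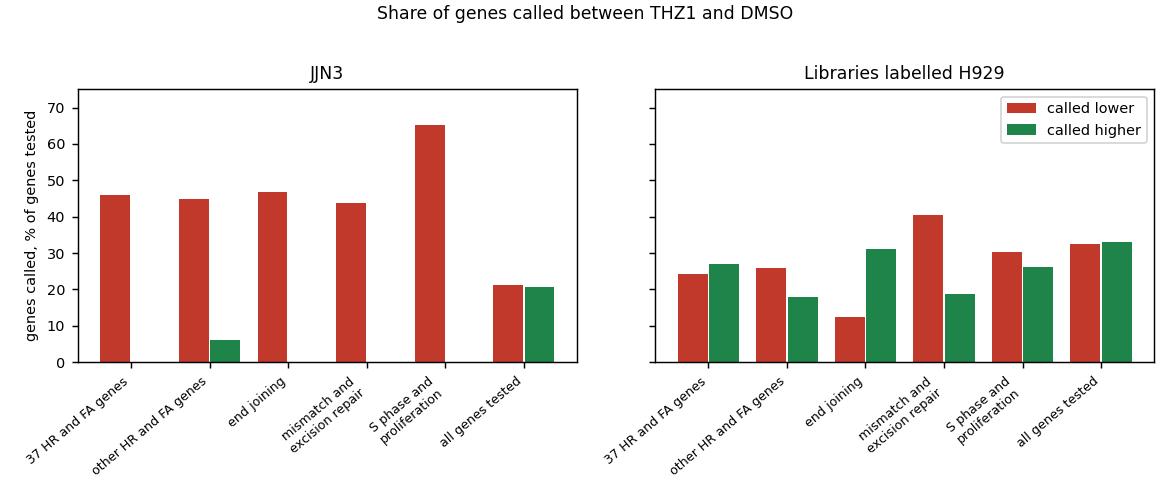
Percentage of the genes tested that were called lower (red) and higher (green) between THZ1 and DMSO, for the 37 HR and FA genes, 4 other gene lists and all genes tested, in JJN3 and between the libraries labelled H929. In JJN3 each list has 43.8% or more of its genes lower, against 21.3% of all genes.

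Between the H929 labels, 9 of the 37 genes were lower in the THZ1 libraries and 10 were higher, with a median log2 fold change of 0.12, which was 0.03 without DMSO replicate 1 and 0.20 without DMSO replicate 2. The share of all genes called was larger here, with 32.6% of 14863 genes lower and 33.1% higher, and the members' shares of 24.3% and 27.0% were below it. The genes lower under both lines' labels were BRCA1, PALB2, RAD51B, RAD51C, XRCC2, FANCD2, ATRIP and EXO1, which makes 8 of the 17 lower in JJN3 (47.1%) and 8 of the 9 lower between the H929 labels (88.9%). Of all genes tested in both, 45.6% of those lower in JJN3 were lower between the H929 labels and 32.0% of those lower between the H929 labels were lower in JJN3. As a share of the whole, 21.6% of the 37 members and 10.1% of the 12787 genes were lower in both. CHEK2 was the ninth gene lower between the H929 labels, at 44.8 and 48.6 CPM in DMSO and 23.6 and 25.3 CPM in THZ1. The RAD51B call (-0.65 ± 0.20) was lost in DESeq2 (adjusted p = 0.0571) and in edgeR without H929 THZ1 replicate 2 (-0.51, adjusted p = 0.0676). RAD51C had the largest fall here, from 62.7 and 64.7 CPM to 27.1 and 29.6 CPM, a log2 fold change of -1.16 ± 0.075 (edgeR adjusted p = 5.86e-10).

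Of the 10 genes higher between the H929 labels, 5 belong to the FA core complex. MRE11A differed most, at 3.03 and 3.23 CPM per kb in the DMSO libraries and 12.6 and 12.9 CPM per kb in the THZ1 libraries, a log2 fold change of 2.03 ± 0.073 (edgeR adjusted p = 4.85e-13). In JJN3 the same gene lay between 9.75 and 10.7 CPM per kb in all 4 libraries, nearer to the H929-labelled THZ1 libraries. FANCA read 21.2 and 26.0 CPM under DMSO and 62.0 and 58.9 CPM under THZ1, a log2 fold change of 1.37 ± 0.089 (edgeR adjusted p = 7.13e-10). FANCC, FANCE, FANCG and FANCL were also higher, and BARD1, BRIP1, RAD51AP1 and CHEK1 complete the 10. FANCL, at 0.56 ± 0.10, did not pass without THZ1 replicate 2 (0.50). FANCE, FANCG and CHEK1 were lower in JJN3 and higher between the H929 labels, which is 8.11% of the members against 4.32% of all genes tested in both. The reverse was not open to any member, since 0 rose in JJN3, and was seen in 4.47% of all genes. CHEK1 read 80.2 and 76.5 CPM under the DMSO label and 147.9 and 150.3 CPM under the THZ1 label, a log2 fold change of 0.93 ± 0.056. The other lists were split as well, with 13 lower and 9 higher of 50 other HR and FA genes, 2 and 5 of 16 in end joining, 13 and 6 of 32 in mismatch and excision repair, and 7 and 6 of 23 in the S phase list. CDK7 itself was lower between these labels, from 50.1 and 50.4 CPM to 11.1 and 10.6 CPM.

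The difference between the 2 responses was tested in a fit of all 8 libraries. For 15 members the response in JJN3 was lower than that between the H929 labels and for 1 it was higher, with 28.1% and 25.5% of 16122 genes as the background. The skew was not particular to the members. It was 20 lower and 7 higher of 50 other HR and FA genes, and 8 and 1 of 16 in end joining. In mismatch and excision repair it was 14 and 3 of 32, and in the S phase list 13 and 3 of 23. Among the members, the largest differences in log2 fold change were those of MRE11A (-2.08 ± 0.11), FANCG (-1.88 ± 0.14), FANCE (-1.63 ± 0.18) and CHEK1 (-1.51 ± 0.095). Of the 8 genes lower under both lines' labels, none passed this test, with differences between -0.33 (ATRIP) and 0.44 (PALB2). These 8 were picked for falling beyond 0.5 in both comparisons of the same libraries. A small difference was thus partly built in and is not a separate result. BRCA1, PALB2, FANCD2 and EXO1 had an adjusted p under 0.05 in that edgeR fit but a difference smaller than the limit of 0.5. These differences rest on the libraries labelled H929 and carry the same limit as above.

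Without inhibitor, the 37 genes were more often higher in JJN3 than in the libraries labelled H929. In the DMSO libraries 19 members were higher in JJN3 and 2 were lower, with a median log2 difference of 0.51, JJN3 over H929. The background was 32.6% higher and 33.0% lower among 14590 genes. This skew was not particular to the members, with 25 higher and 6 lower of 50 other HR and FA genes. It was 11 and 2 of 23 in the S phase list and 5 and 2 of 15 in end joining. Mismatch and excision repair had 7 and 7 of 32. Among the members RBBP8 differed most, at 461.1 and 445.0 CPM in JJN3 and 111.5 and 110.9 CPM under the H929 label, a log2 difference of 2.03 ± 0.053 (edgeR adjusted p = 3.54e-13). RAD54B followed with a log2 difference of 1.99 ± 0.14, from 18.3 and 17.4 CPM in JJN3 and 3.87 and 5.15 CPM under the H929 label, with the caution that 65.5% of its canonical transcript is shared with FSBP on the same strand. MRE11A (1.76 ± 0.075), CHEK1 (1.58 ± 0.055) and FANCA (1.35 ± 0.091) came next. RAD51AP1 just passed the limit at 0.51 and did not reach it without JJN3 DMSO replicate 2 (0.497) or H929 DMSO replicate 1 (0.43). The 2 lower genes were CHEK2 (-0.61 ± 0.077) and RAD51D (-0.52 ± 0.10), the latter not passing without JJN3 DMSO replicate 2 (-0.47) or H929 DMSO replicate 1 (-0.495). RAD50 read 139.2 to 149.8 CPM in all 4 DMSO libraries. The line, its handling and the doubt over the H929 labels cannot be told apart in this comparison.

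Promoter sequence was looked at as a feature the list did not use. RefSeq windows on GRCh38.p14, from 250 bases before to 50 bases after each start, were found for 33 of the 37 genes (46 windows). FANCI, RAD54B, NBN and WRN were not matched. E2F-type letters (TTTCCCGC, TTTGGCGC or TTTCGCGC, either strand) were in 8.7% of the members' windows and 2.74% of all 35116 windows. Among the 16 matched genes that fell in JJN3 these letters were in EXO1, FANCD2 and XRCC2, and among the 17 that were not called in FANCC. CHR-type letters (TTTGAA or TTCGAA) were in 6.52% of members' windows and 16.4% of all, in 0 of the 16 genes that fell and in 3 of the 17 that were not called. CCAAT, the box read by the factor NF-Y, was in 45.7% of members' windows and 34.6% of all, in 7 of the 16 genes that fell and in 9 of the 17 that were not called. Counted by gene, in any window, E2F-type letters were in 12.1% of the 33 members and 3.3% of all 27305 genes. By the same count, CHR-type letters were in 9.09% and 19.5%, and CCAAT in 48.5% and 39.7%. The 4 promoters below, chosen after the values were seen, show that more than a single CCAAT box lay in the 130 bases before the start both in genes that fell (XRCC3 and BLM) and in genes that did not (BRIP1 and MRE11A). Each is the 130 bases before the start, 5′ to 3′ on the gene's strand, with CCAAT and its reverse complement in capitals, at chr14:103715452-103715581 (minus), chr15:90717216-90717345 (plus), chr17:61863529-61863658 (minus) and chr11:94493845-94493974 (minus) in that order.
XRCC3: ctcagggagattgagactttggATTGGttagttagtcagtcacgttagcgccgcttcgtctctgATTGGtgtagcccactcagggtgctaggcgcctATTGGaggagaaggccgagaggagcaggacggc
BLM: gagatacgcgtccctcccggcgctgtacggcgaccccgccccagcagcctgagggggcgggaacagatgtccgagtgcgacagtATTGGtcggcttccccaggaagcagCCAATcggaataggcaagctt
BRIP1: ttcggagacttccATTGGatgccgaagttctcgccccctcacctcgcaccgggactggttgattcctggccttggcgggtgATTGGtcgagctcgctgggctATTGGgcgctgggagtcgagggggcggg
MRE11A: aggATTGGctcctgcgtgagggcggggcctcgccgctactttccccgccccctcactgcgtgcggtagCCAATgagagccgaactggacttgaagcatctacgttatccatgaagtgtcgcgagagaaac
A match of these letters describes the sequence and does not show that a factor binds there.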

How the data were processed

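Total RNA of the 8 libraries was sequenced as single-end reads of 50 bases. Per the labels and the study's methods, the authors aligned reads to hg19 with STAR 2.5.2a and kept only uniquely aligned reads. These were counted per gene with featureCounts, and the deposited values are raw counts. The strand setting was not given in the sources used here. The deposited DESeq2 1.12.4 tables hold the authors' own fold changes and p-values, which were not used, except that gene symbols were read from a column of the JJN3 table.

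Counts were tested in edgeR 4.0.16 (R 4.3.3) with TMM scaling, filterByExpr and glmQLFTest, with Benjamini-Hochberg adjustment over all genes tested. Calls needed an adjusted p below 0.05 with a log2 fold change larger than 0.5 in size. The JJN3, H929-label and DMSO comparisons each used their own 4 libraries, and the difference in response used all 8. CPM used TMM sizes over all 8 libraries, and a count of 3, taken as the floor, corresponds to 0.156 to 0.172 CPM. Lengths and overlaps came from GENCODE v44lift37 on GRCh37, not the authors' annotation. Every member could be named. From each other list up to 3 called falls and 3 called rises in JJN3 could be, if the mean log2 CPM was 3 or more, and also CDK7, CDK12, CDK13 and CCNK. The members and lists were chosen with earlier results of these data known. Alternatives were DESeq2 1.42.0 and its size factors, total counts, other filters, other fold limits, the replicate number as a block, and leaving out each library.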

Additional observations from a re-analysis of the deposited data

Results flagged for a closer look

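A total of 16 of the 37 genes were singled out because their log2 fold change with THZ1 differed between JJN3 and the libraries labelled H929 in the test of the difference itself (edgeR, all 8 libraries, adjusted p under 0.05 and a difference beyond 0.5). The values are the log2 fold change in JJN3 minus that between the H929 labels. In the FA pathway these were FANCG (-1.88), FANCE (-1.63), FANCF (-1.06), FANCC (-0.96), FANCA (-0.95), FANCI (-0.81) and BRIP1 (-0.79), all lower in JJN3, and FANCB (0.54), the only member higher. Among the other HR genes, BARD1 (-1.09), XRCC3 (-1.03), RAD51AP1 (-0.87), RAD51D (-0.87) and RAD54B (-0.61) were lower. MRE11A (-2.08), CHEK1 (-1.51) and BLM (-0.70) complete the list. The background, 28.1% of genes lower and 25.5% higher, is large. The other repair lists and the S phase list were also more often lower than higher in this test, so the skew is not particular to the members. The light chain genes and plasma cell markers that differ between the H929-labelled groups apply to all 16 values, and their part in them was not tested. The FANCB call was lost when any of 6 libraries was left out (all but JJN3 THZ1 replicate 2 and H929 THZ1 replicate 2), with values of 0.44 to 0.54. The RAD54B call was lost in DESeq2 (-0.61, adjusted p = 0.0639) and in edgeR without JJN3 DMSO replicate 1 (-0.59), H929 DMSO replicate 1 (-0.43) or H929 THZ1 replicate 2 (-0.61).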

How the results depend on the processing

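In JJN3, 16 of the 17 genes lower were called under all 11 alternatives that kept the fold limit, and RAD51D was lost without THZ1 replicate 1. Between the H929 labels 8 of 9 lower calls and 9 of 10 higher calls were kept (not RAD51B and FANCL). Scaling to total counts moved the median of all genes by -0.10 in JJN3 and by -0.18 in the difference of responses, and the members' medians to -0.55 and -0.57. With no fold limit, 4 members were higher in JJN3. In the difference of responses 23 were then lower and 4 higher, and at baseline 4 were lower. With a log2 limit of 1, 3 were lower in JJN3, 2 lower and 4 higher between the H929 labels, 7 lower and 0 higher in the difference, and 0 lower and 8 higher at baseline. The 1 member higher in the difference, FANCB, was not called with DESeq2, total counts or no filter (0 higher), and 1 member was lower at baseline with total counts or no filter. Leaving out 1 library gave 16 to 19 lower and 0 to 1 higher in JJN3, 8 to 9 lower, 9 to 12 higher and a median of 0.03 to 0.20 between the H929 labels, 14 to 18 lower and 0 to 1 higher in the difference, and 2 to 3 lower and 18 to 19 higher at baseline. The lone library of a group is then assumed to vary like the others. Small values of uncalled genes changed sign. With DESeq2 or its size factors, BRIP1 (0.015) and RAD50 (0.002) did so in JJN3, and RAD50 (0.017) and NBN (0.007) between the H929 labels. With total counts it was RAD51AP1 (-0.041), ATR (-0.008) and RBBP8 (-0.021) in JJN3, RAD50 (0.041) and NBN (0.031) between the H929 labels, and BRCA2 (-0.141) in the difference. With 1 CPM in 2 libraries it was BRIP1 (0.017) and RAD50 (0.004) in JJN3 and BRCA2 (-0.019) in the difference, which was -0.081 with no filter and -0.0 in DESeq2. Without 1 library, JJN3 values ranged from -0.063 to 0.031 for BRIP1, from -0.124 to 0.004 for BARD1 and up to 0.014 for MRE11A. H929-label values ranged from -0.022 to 0.013 for RAD50, -0.057 to 0.029 for NBN, -0.010 to 0.257 for XRCC3, -0.007 to 0.026 for RAD54L and -0.019 to 0.144 for RMI1. In the difference they ranged from -0.130 to 0.076 for BRCA2, -0.165 to 0.062 for ATM and -0.247 to 0.040 for RAD51B, and at baseline from -0.158 to 0.031 for RAD51C and -0.011 to 0.138 for ATRIP. The cause of these changes was not tested. Same-numbered libraries did not deviate together (correlations 0.011 in JJN3 and -0.029 between the H929 labels). The labels do not state a pairing and these values cannot settle it, so whether the samples were paired is not known. The replicate block gave 17 lower and 0 higher in JJN3, 9 and 10 between the H929 labels, 15 and 1 in the difference and 2 and 19 at baseline. With 2 libraries a group, few degrees of freedom limit what can be called.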
